A study of Mus musculus with 2 samples.

Results

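The wound keratin high cells were the cells of wounded mouse skin with the most RNA of the keratins Krt6a, Krt6b and Krt16 among cells with little Krt1 and Krt10. They were chosen by a score, the sum of a cell's Krt6a, Krt6b and Krt16 levels in CPM (UMIs scaled to a total of 1000000 per cell, where a UMI tags 1 captured RNA molecule), of which the top 10% of cells were taken. The choice was made among 4151 cells from wounds of 3 and 5 days with less than 5000 CPM of Krt1 plus Krt10, and it gave 415 cells of the 5666 hashtagged cells of the series. The other 3736 of the 4151 cells are called the rest, and the 746 wounded cells at or above the Krt1 plus Krt10 limit are called Krt1 plus Krt10 high. The lowest score inside was 48124 CPM and the highest outside 48034 CPM, and 210 cells, 104 inside and 106 outside, lay within 10% of the limit. The class is thus a range of a score, and whether it is a separate type was not tested. Their working name was activated keratinocytes, but 13 of 15 basal and hemidesmosome genes were lower in them than in the rest (8 under both scalings used below) and 10 of 15 early suprabasal genes higher, so they are called by the keratins that chose them.

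The mice were C57B6/J, pooled male and female, and every group carried Sox9-CreER, a tamoxifen-dependent Cre driven from Sox9, and R26-LSL-YFP, a reporter that Cre switches on, so that YFP marks descendants of Sox9-expressing hair follicle cells. The groups were Phgdh fl/fl and Phgdh +/+ skin at 3 days post wounding (dpw) and at 5 dpw, and unwounded skin of both genotypes. PHGDH is the first enzyme of serine synthesis, and the same Cre removes the floxed alleles. Wounded cells were sorted as live, CD140a-, CD117-, CD31- and CD45-negative, integrin-a6 high and YFP-positive, while unwounded cells also had to be SCA1-negative, CD34-positive and CD200-positive. All conditions were hashtagged and run as 1 capture of 3′ single-cell RNA, so each condition is 1 pool of cells, values carry counting error only, and no test between conditions is possible. Cells of 1 pool are not replicates, and the number of animals in a pool is not given in the sources used here.

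Krt6a and Krt6b are type II keratins and Krt16 is a type I keratin, and these proteins pair into filaments. Interfollicular epidermis at rest makes little of them, whereas keratinocytes near a wound make much, as do parts of the hair follicle. Krt5 and Krt14 are the keratin pair of basal cells, which sit on the basement membrane and divide, and Krt1 and Krt10 replace them as cells of normal epidermis move up and differentiate.

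The score chose the cells, so its values are a description. The median wound keratin high cell had 32290 CPM of Krt16, 15323 CPM of Krt6a and 11199 CPM of Krt6b, against 780 CPM, 3448 CPM and 150 CPM in the rest. Summed over cells, Krt16 stood at 34205 CPM (fl/fl, 3 dpw), 32662 CPM (+/+, 3 dpw), 33198 CPM (fl/fl, 5 dpw) and 33526 CPM (+/+, 5 dpw), against 6759, 5631, 8135 and 6200 CPM in the rest. The same limit chose the cells in every pool, so like levels inside the class follow from the choice. Krt16 was the highest of these keratins in 409 of the 415 cells and Krt6a in the other 6. Of the 415 cells, 361 were also in the top 10% of the 4151 cells by Krt16 alone, 330 by Krt6b alone and 296 by Krt6a alone, and 197 were in all of these top 10% sets. Across the 415 cells the Spearman rho was 0.33 for Krt6a with Krt6b, 0.04 for Krt6a with Krt16 and 0.03 for Krt6b with Krt16. Across the 3736 cells of the rest it was 0.71, 0.84 and 0.75 for the same pairs. The points share the capture and each cell's total, and the limit on the sum narrows the range inside it. Krt6a and Krt6b are near-identical neighbouring genes on chromosome 15 (101689928 to 101694305 and 101676023 to 101680293, GRCm38.p6), and how reads that fit both were counted is not given in the sources used here, so their split is uncertain. Krt16 lies on chromosome 11 from 100246091 to 100248902.

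**Figure D1:**
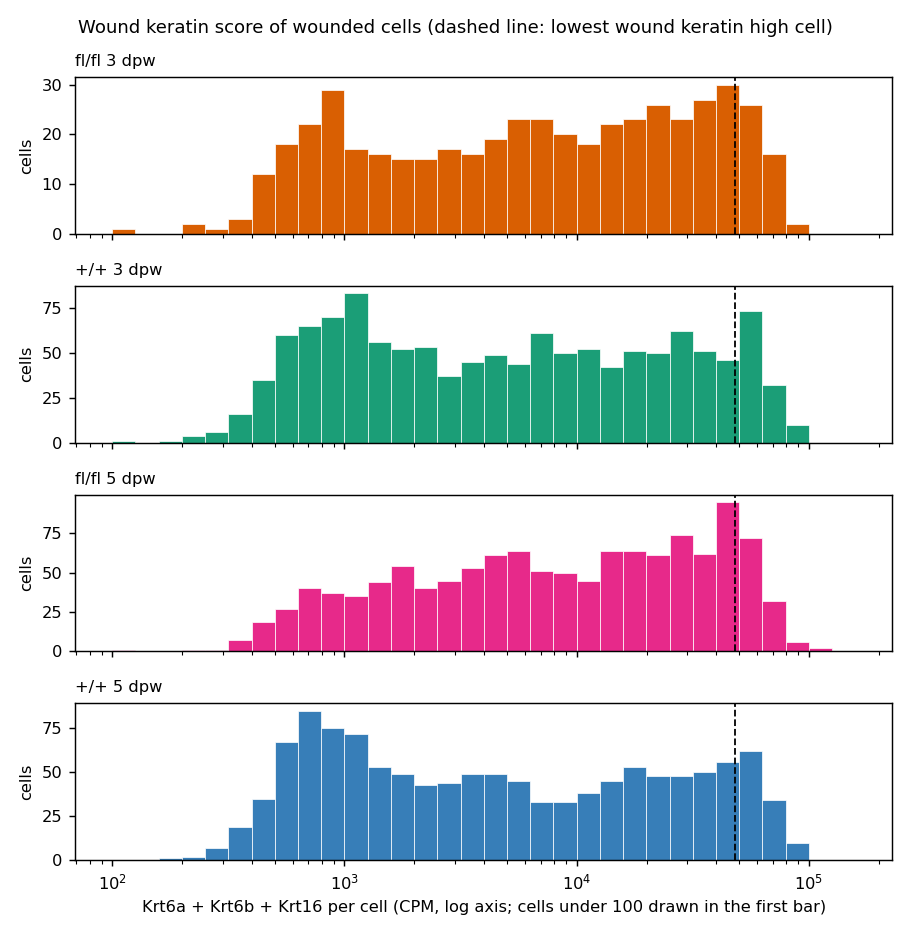
Cells (vertical axis) by Krt6a plus Krt6b plus Krt16 level in CPM (horizontal log axis) in the 4 wounded pools, for cells under the Krt1 plus Krt10 limit. The dashed line is the lowest wound keratin high cell, at 48124 CPM, with cells on both sides of it in each pool. Cells spread over low and high levels, and in +/+ skin at 3 dpw the fullest bins held 83 cells, from 1000 to 1259 CPM, and 73 cells, just above the line.

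Wound keratin high cells made up a like share of the cells under the Krt1 plus Krt10 limit in every wounded pool. Over these pools together the rule fixed the share at 10%. Krt1 plus Krt10 high cells, left out of these shares, were 6.77% (fl/fl) and 8.98% (+/+) of all pool cells at 3 dpw. At 5 dpw they were 19.4% (fl/fl) and 19.7% (+/+). Wound keratin high cells were 50 of 482 cells under the limit in fl/fl skin at 3 dpw (10.4%, 95% exact binomial interval 7.80% to 13.4%). In +/+ skin at 3 dpw they were 123 of 1257 (9.79%, 8.20% to 11.6%). At 5 dpw they were 124 of 1207 cells in fl/fl skin (10.3%, 8.62% to 12.1%) and 118 of 1205 in +/+ skin (9.79%, 8.17% to 11.6%). The ratio of shares, fl/fl over +/+, was 1.06 at 3 dpw (0.776 to 1.44) and 1.05 at 5 dpw (0.826 to 1.33), and 5 over 3 dpw it was 0.990 in fl/fl skin (0.728 to 1.35) and 1.001 in +/+ skin (0.788 to 1.27). These intervals all hold 1 and are wide, so a like share is not shown to be the same share. By the same limit of the score, 1 of 531 unwounded fl/fl cells and 0 of 234 unwounded +/+ cells were high. A count of 0 allows a share of up to 1.28%. The unwounded cells passed a narrower sort and were shallower, with a median of 7598 UMIs in fl/fl and 7443.5 UMIs in +/+ cells.

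The share differed between the sexes of the +/+ pool at 5 dpw. Cells were called female from at least 2 Xist UMIs with at most 1 Y-linked UMI, and male from the reverse. Wound keratin high cells were 10 of 291 female cells (3.44%, 1.66% to 6.23%) and 97 of 802 male cells (12.1%, 9.92% to 14.6%) in +/+ skin at 5 dpw. At 3 dpw they were 30 of 373 female cells (8.04%, 5.49% to 11.3%) and 79 of 751 male cells (10.5%, 8.42% to 12.9%), with overlapping intervals. The female +/+ cells at 5 dpw were shallower, with a median of 21535 UMIs against 44704.5 UMIs in male cells, and no fl/fl cell was called female. Within male cells the ratio of shares, fl/fl over +/+, was 0.942 at 3 dpw and 0.856 at 5 dpw. Sex, animal and depth cannot be told apart here.

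Wound keratin high cells were deep cells with little mitochondrial RNA. Their median was 64014 UMIs, 6021 genes and 2.82% mitochondrial UMIs, against 38847 UMIs, 5685 genes and 4.42% in the rest. With each cell thinned to 5000 UMIs the median was 1626 genes against 1923 in the rest, so at equal depth fewer genes were seen. Over the deciles of the score from low to high, the median depth ran from 20147 to 64014 UMIs and the mitochondrial share from 5.27% to 2.82%. Scored after thinning to 5000 UMIs, 386 of the 415 cells (93.0%) were again in the top 10%.

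Marker lists describe them as keratinocytes with suprabasal genes and little RNA of non-epithelial cells. In the median wound keratin high cell the 7 suprabasal markers summed to 12866 CPM, against 3795 CPM in the rest, while the 7 bulge stem cell markers summed to 46.0 CPM, against 164 CPM. All 7 suprabasal markers were higher and all 7 bulge markers lower when UMIs were summed over the cells. Of 6 upper hair follicle markers Cst6 and Plet1 were higher, at 667 and 443 CPM against 389 and 301 CPM in the rest, and the other 4 lower. They summed to 811 CPM in the median wound keratin high cell and 313 CPM in the rest. Fibroblast markers, with Col3a1 and Lum at 0, summed to between 0 and 0.354 CPM per pool, against 0.702 to 1.59 CPM in the rest. Immune markers, with Cd3e at 0, summed to 1.35 to 4.84 CPM, against 3.13 to 10.4 CPM, and endothelial markers, with Kdr at 0, to 0.337 to 2.05 CPM, against 2.11 to 2.68 CPM. Melanocyte markers, with Tyrp1 at 0, summed to 4.72 to 13.2 CPM, against 15.3 to 43.5 CPM. Of the markers of the inner root sheath and hair all 5 were lower, and Krt75, a keratin of the companion layer that also expresses Krt6 and Krt16, stood at 3.95 CPM against 1.82 CPM in the rest. The other 3 companion layer and inner bulge markers, Fgf18, Bmp6 and Timp3, were lower, at 0.323, 0.826 and 1.40 CPM against 1.24, 5.26 and 15.4 CPM.

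For the gene comparison, UMIs were summed over the wound keratin high cells and over the rest of each pool. A gene was called higher or lower when it differed by at least 1.5-fold with an interval that left out no change in all 4 pools. Of 2478 genes averaging 50 CPM or more, 197 were higher (7.95%) and 455 lower (18.4%). Since the score cut this contrast, the counts are a description with no test. They also lean on the scaling: with TMM factors (edgeR's correction for composition) 450 were higher and 169 lower, the median log2 fold over genes moved up by 0.41 to 0.55 by pool, and the 197 higher and 169 lower genes were called under both. Over 5099 genes of at least 20 CPM, the minimum used for gene lists, 321 were higher (6.3%) and 1222 lower (24%), with a median log2 fold of -0.39, and with TMM 13.9% were higher and 9.92% lower. Measured genes of a list averaged at least 20 CPM over wound keratin high cells and the rest. A gene low in 1 of these classes can thus enter through the other, and the list counts are a description. Means of log2 folds below are over the 4 pools with their SD, and these pools are 4 conditions, not replicates.

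Genes of differentiating keratinocytes led the higher side. Of 15 early suprabasal genes 10 were higher and 0 lower under both scalings, with a median log2 fold of 1.30 from pool totals. Sbsn, a secreted suprabasal protein, had 4347 CPM (fl/fl, 3 dpw), 4655 CPM (+/+, 3 dpw), 1934 CPM (fl/fl, 5 dpw) and 1832 CPM (+/+, 5 dpw) in wound keratin high cells, against 780, 847, 291 and 301 CPM in the rest of the same pools. Each wound keratin high value was above every value of the rest, and the mean log2 fold was 2.57 ± 0.13 (SD, n = 4 pools). Ly6d, a surface protein of the LY6 family, and its relative Lypd3 had mean log2 folds of 2.06 ± 0.28 and 1.93 ± 0.09, and Dsc1, a desmosomal cadherin of differentiated layers, 1.94 ± 0.25 (SD, n = 4 pools). Krt1 and Krt10 themselves, which the choice of cells had capped, stayed near the rest, with mean log2 folds of 0.50 ± 0.34 and 0.25 ± 0.29.

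Genes of the granular layer and the cornified envelope, the protein shell of dead surface cells, were higher in 8 of 9 measured members and lower in 0, with a median log2 fold of 2.89. Cnfn, a cornified envelope protein, had 1255 CPM (fl/fl, 3 dpw), 1587 CPM (+/+, 3 dpw), 610 CPM (fl/fl, 5 dpw) and 381 CPM (+/+, 5 dpw) in wound keratin high cells, against 146, 160, 21.2 and 29.2 CPM in the rest. Tgm3, a transglutaminase that crosslinks the envelope, and Spink5, an inhibitor of epidermal proteases, had mean log2 folds of 3.04 ± 0.70 and 2.98 ± 0.36. These genes were uneven between cells: the 6 granular markers summed to 98.3 CPM in the median wound keratin high cell, with 23.3 and 706 CPM at the quartiles, against a median of 0 in the rest. Lce3c, a late cornified envelope gene, missed the call, with log2 folds between 0.11 and 5.19 over the pools. Filaggrin (Flg), loricrin (Lor) and Flg2, also late genes, stood at 0.610, 2.48 and 0 CPM over all wound keratin high cells, against 1.35, 1.52 and 0.00619 CPM in the rest.

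Small proline-rich proteins, the spacers of the envelope, were higher in 6 of 8 measured members and lower in 0, with a median log2 fold of 2.70. Sprr1b had 8302 CPM (fl/fl, 3 dpw), 7303 CPM (+/+, 3 dpw), 5345 CPM (fl/fl, 5 dpw) and 5142 CPM (+/+, 5 dpw) in wound keratin high cells, against 936, 849, 693 and 454 CPM in the rest, a mean log2 fold of 3.18 ± 0.23. Sprr1a had a mean log2 fold of 3.57 ± 0.29, with 1338 to 4457 CPM in wound keratin high cells and 129 to 405 CPM in the rest. S100a8 and S100a9, the calprotectin subunits that stressed keratinocytes and neutrophils make, had mean log2 folds of 3.30 ± 0.37 and 3.27 ± 0.41. S100a9 stood at 2419 CPM (fl/fl, 3 dpw), 2316 CPM (+/+, 3 dpw), 1147 CPM (fl/fl, 5 dpw) and 702 CPM (+/+, 5 dpw), against 175, 318, 108 and 86.1 CPM in the rest. Of 10 measured S100 genes 3 were higher, S100a16 being the other, and 0 lower.

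The 4 promoters of Sprr1a, Sprr1b, S100a8 and S100a9 are shown because these genes of the epidermal differentiation complex on chromosome 3 were high together. They were picked from the genes highest against the rest, and the Sprr1 pair lies apart from the S100 pair. Each runs from 250 bases before to 50 bases after the annotated start (RefSeq, GRCm38.p6), 5′ to 3′ on the strand of the gene. Capitals mark TGANTCA, the letters of an AP-1 site, which read alike on both strands, and TATAAA, the letters of a TATA box on the strand of the gene. They lie at chr3:92485832-92486131 (minus strand), chr3:92438730-92439029 (minus strand), chr3:90668821-90669120 (plus strand) and chr3:90695672-90695971 (minus strand), in the order printed.
Sprr1a: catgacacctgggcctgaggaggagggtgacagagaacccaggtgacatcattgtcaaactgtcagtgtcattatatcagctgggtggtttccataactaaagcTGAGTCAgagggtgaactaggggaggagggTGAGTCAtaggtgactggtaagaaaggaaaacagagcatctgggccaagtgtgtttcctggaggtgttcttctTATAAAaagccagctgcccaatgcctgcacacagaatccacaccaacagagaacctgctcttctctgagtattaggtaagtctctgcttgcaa
Sprr1b: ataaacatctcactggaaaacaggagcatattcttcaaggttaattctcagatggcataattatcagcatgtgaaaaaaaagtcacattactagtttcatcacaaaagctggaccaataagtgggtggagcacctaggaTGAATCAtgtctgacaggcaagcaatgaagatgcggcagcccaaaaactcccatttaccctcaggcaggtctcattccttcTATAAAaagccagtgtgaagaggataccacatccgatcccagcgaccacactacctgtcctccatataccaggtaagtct
S100a8: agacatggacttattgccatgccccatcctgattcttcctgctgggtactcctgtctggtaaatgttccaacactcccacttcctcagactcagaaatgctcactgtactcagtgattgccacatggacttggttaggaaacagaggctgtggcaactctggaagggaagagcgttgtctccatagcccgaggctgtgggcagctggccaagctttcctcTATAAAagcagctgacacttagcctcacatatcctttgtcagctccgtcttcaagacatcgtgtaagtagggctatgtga
S100a9: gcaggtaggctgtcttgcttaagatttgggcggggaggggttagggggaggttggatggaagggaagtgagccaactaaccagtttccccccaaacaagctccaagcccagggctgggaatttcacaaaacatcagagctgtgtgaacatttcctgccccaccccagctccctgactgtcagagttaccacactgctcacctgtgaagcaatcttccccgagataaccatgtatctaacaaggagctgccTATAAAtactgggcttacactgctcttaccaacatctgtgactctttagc
All 4 hold TATAAA on the strand of the gene, while 13.6% of 32851 promoters of this length hold it on either strand. It begins 43 bases before the start in Sprr1a, 30 bases before it in Sprr1b and S100a8, and at the annotated start itself in S100a9. TGANTCA, held by 7.81% of the 32851, was found in both Sprr promoters, at 146 and at 116 bases before the start of Sprr1a and at 111 bases before the start of Sprr1b, and in neither S100 promoter. Aligned end to end, Sprr1a and Sprr1b were identical over 56.6% of columns, S100a8 and S100a9 over 50.3%, and Sprr1a and S100a8 over 52.4%. Among the 15 genes with the highest mean log2 fold, 12 had a promoter in the table. Of these 7 held TATAAA on either strand and 2 held TGANTCA. Among the 15 lowest the numbers were 10, 2 and 1. A gene counted when any of its promoters matched, whereas the shares of the 32851 are per promoter. The matches among the lowest were all in genes with more than 1 promoter (Adgrl3, Postn and Prxl2a), while the 12 highest had 1 each, so these numbers are not alike. A match is a run of letters and not a measured site.

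Protease inhibitors, junction proteins and several secreted defence factors were also higher. A list of stefins, serpins and Slpi, inhibitors of cysteine and serine proteases, was higher in 9 of 13 measured members. Slpi, which is neither a stefin nor a serpin, stood at 516 to 873 CPM against 60.0 to 202 CPM in the rest. In the fl/fl 3 dpw pool 5 cells held 84.5% of its UMIs. The serpin Serpinb6c had a mean log2 fold of 2.95 ± 0.15. Desmosome genes, which bind cells to each other, were higher in 6 of 10, led by the cadherin Dsc2 at 2.47 ± 0.11. Gap and tight junction genes were higher in 3 of 10, namely the connexins Gjb2 (2.16 ± 0.22) and Gjb6 (2.82 ± 0.22) and the claudin Cldn4 (2.02 ± 0.32). None of these lists had a lower member. Defb14, an antimicrobial beta-defensin, had the highest mean log2 fold of the named genes, 4.17 ± 0.71, with 609 CPM (fl/fl, 3 dpw), 666 CPM (+/+, 3 dpw), 304 CPM (fl/fl, 5 dpw) and 275 CPM (+/+, 5 dpw), against 57.7, 49.1, 12.3 and 9.15 CPM in the rest.

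Secreted signals and defence factors did not move as a block. Of 10 alarmins, cytokines and antimicrobials 3 were higher (Defb14, Defb1 and Il33) and 4 lower (Il24, Defb6, Cxcl1 and Ccl27a), under both scalings. Il33, an alarmin cytokine held in the nucleus, stood at 256 to 412 CPM against 41.8 to 51.2 CPM in the rest, while Cxcl1, which attracts neutrophils, stood at 2.28 to 5.74 CPM against 42.2 to 57.3 CPM. Of 10 EGF family ligands and receptors 1 was higher and 1 lower. Hbegf, a ligand of the EGF receptor, stood at 425 to 781 CPM against 212 to 245 CPM (mean log2 fold 1.32 ± 0.34), and Nrg1, a ligand of ERBB3 and ERBB4, at 32.3 to 93.8 CPM against 490 to 626 CPM (-3.41 ± 0.74).

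**Figure D2:**
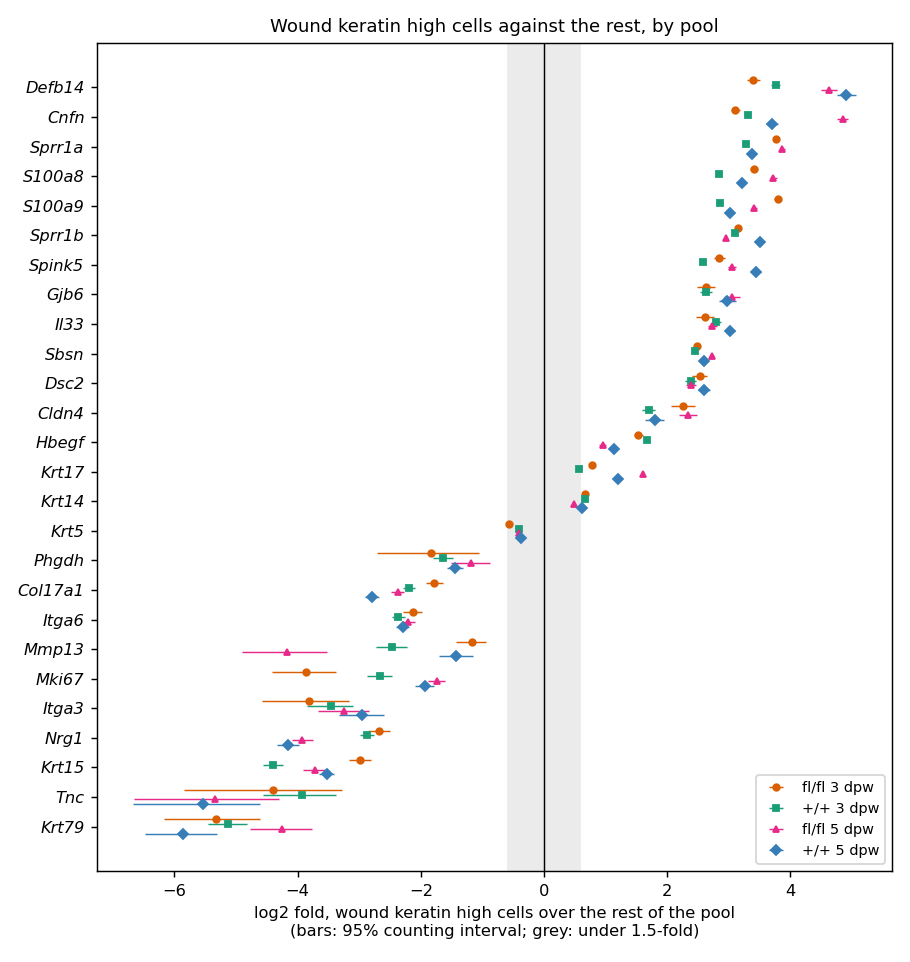
Log2 fold of wound keratin high cells over the rest of the same pool (horizontal axis) for 26 named genes (rows), with a point and a 95% counting interval for each of the 4 pools; grey marks under 1.5-fold. Defb14 to Cldn4 lie right of 1.5-fold and Phgdh to Krt79 left of it in all 4 pools, and Krt5 lies inside the band under this scaling.

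Most basal genes and some wound-edge genes were lower than in the rest. Of 15 genes of basal keratins and hemidesmosomes, which anchor basal cells, 13 were lower from pool totals and 8 under both scalings, with 0 higher from pool totals and 1, Krt14, with TMM. Itga6, the integrin chain on which the cells were sorted as protein, had 115 CPM (fl/fl, 3 dpw), 105 CPM (+/+, 3 dpw), 87.3 CPM (fl/fl, 5 dpw) and 92.6 CPM (+/+, 5 dpw), against 505, 542, 403 and 454 CPM in the rest. Itga3 and the hemidesmosomal collagen Col17a1 had mean log2 folds of -3.37 ± 0.37 and -2.28 ± 0.42. The basal keratins went another way: Krt14 was at 35751 to 41157 CPM in wound keratin high cells and 22490 to 29359 CPM in the rest (0.61 ± 0.08), and Krt5 at 3629 to 5140 CPM and 5368 to 6801 CPM (-0.44 ± 0.09, or 0.03 with TMM). Krt15, a keratin of bulge and basal cells, had a mean log2 fold of -3.66 ± 0.58, and Krt17, another wound keratin, 1.04 ± 0.46.

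The metalloproteinases Mmp10, Mmp13 and Mmp14, which cut matrix proteins, were lower than in the rest under both scalings, and no metalloproteinase of the list was higher. Mmp13, a collagenase, stood at 2.17 to 50.9 CPM against 36.0 to 115 CPM in the rest; the ranges overlapped, but each pool was lower than its own rest, and 5 cells held 73.7% to 91.2% of its UMIs in each wound keratin high pool. Of 22 genes of migration and wound-edge matrix 5 were lower from pool totals, a share near the 24% over all genes, and 4 under both scalings, among them Tnc, an extracellular matrix glycoprotein (-4.81 ± 0.76), and 1 was higher. Krt79 (-5.14 ± 0.67), a keratin of the upper hair follicle, and Sostdc1 (-4.97 ± 0.85), a secreted BMP and WNT modulator, were the lowest named genes, and Sox9 and Cd34, markers of bulge stem cells, were at -1.33 ± 0.34 (-0.86 and no longer past the fold with TMM) and -3.01 ± 0.38, the last from under 20 CPM.

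Cycle genes were low. Of 11 measured G1/S genes 11 were lower (9 under both scalings), and of 16 G2/M genes 16 were lower (15 under both), with median log2 folds of -1.75 and -2.27. Each of these lists holds 20 genes, and a cycle gene could count as measured through its level in the rest. Mki67, present in dividing cells, had 10.8 CPM (fl/fl, 3 dpw), 27.1 CPM (+/+, 3 dpw), 54.3 CPM (fl/fl, 5 dpw) and 44.6 CPM (+/+, 5 dpw), against 158, 172, 182 and 170 CPM in the rest. Only 1 of the 415 cells was in the top 10% by cell cycle genes. Low cycle RNA was not particular to them. The cycle lists summed to 357 CPM in the median wound keratin high cell and 1754 CPM in the rest. In the median Krt1 plus Krt10 high cell they summed to 314 CPM. Against Krt1 plus Krt10 high cells 0 of 12 measured G2/M genes were higher and 0 lower, with a median log2 fold of -0.71. TGF-beta and BMP genes were lower in 6 of 10 measured members (5 under both scalings), with Id3, a BMP target, at -3.11 ± 0.51. Both measured metallothioneins, zinc-binding stress proteins, were lower, with Mt2 at -2.66 ± 0.38.

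Metabolic and stress lists depended on the scaling. Of 18 aminoacyl-tRNA synthetases and 17 genes of the unfolded protein response 0 were higher and 0 lower from pool totals, with median log2 folds of -0.11 and -0.10 that turned to 0.36 and 0.37 with TMM. Of 11 ATF4 targets 3 were higher (Trib3, Sesn2 and Nupr1) and 0 lower, and Atf4 itself was at -0.20 ± 0.07, or 0.27 with TMM. Of 17 cholesterol synthesis genes 4 were higher and 0 lower, and of 15 glycolysis genes 1 was higher, with 12 and 11 higher under TMM (medians 1.03 and 0.97), where 13.9% of all genes were. Of 8 serine and one-carbon genes 3 were lower (2 under both scalings) and 0 higher. Phgdh had 4.72 CPM (fl/fl, 3 dpw), 41.0 CPM (+/+, 3 dpw), 10.7 CPM (fl/fl, 5 dpw) and 58.9 CPM (+/+, 5 dpw), against 16.8, 128, 24.4 and 160 CPM in the rest, so it was lower than in the rest in both genotypes (-1.52 ± 0.28).

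The levels changed along the score at different points. Sprr1b averaged 43.9 CPM in the lowest decile, 215 CPM in the sixth, 2896 CPM in the ninth and 6523 CPM in the tenth, which is the wound keratin high cells. S100a9 and Defb14 were also highest in the tenth, with 566 and 174 CPM in the ninth decile and 1646 and 463 CPM in the tenth. Krt15 ran the other way, at 3091 CPM in the lowest decile, 232 CPM in the fifth and 55.6 CPM in the tenth. Nrg1 and Itga6 peaked in the sixth decile, at 1118 and 750 CPM, and Mmp13 in the seventh, at 189 CPM, before lower values of 61.0, 100 and 21.2 CPM in the tenth. G2/M genes summed to 2744 CPM in the sixth decile, 1272 CPM in the ninth and 596 CPM in the tenth. Depth ran along the same deciles. Against the rest 181 genes were higher and 441 lower among cells of 40000 to 80000 UMIs alone, 191 and 449 with the score taken at 5000 UMIs per cell, and 207 and 472 without the 5% of cells with the most UMIs.

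**Figure D3:**
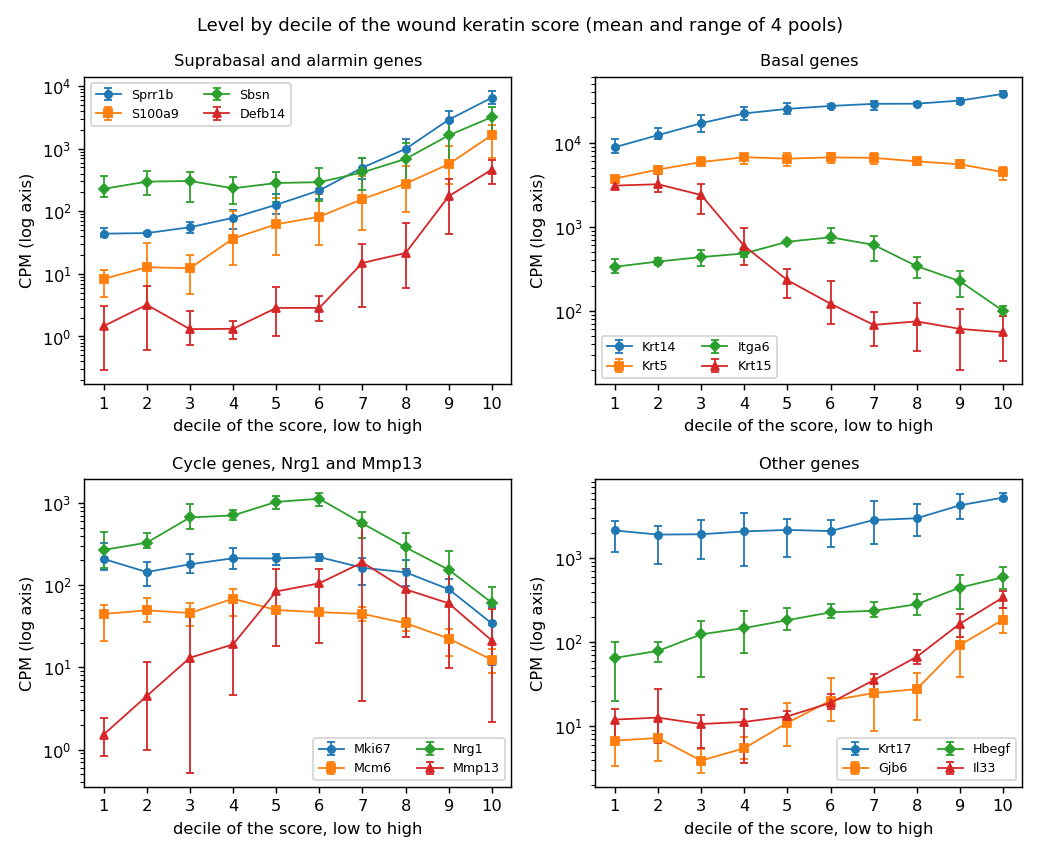
Level in CPM (vertical log axis) over deciles of the wound keratin score, low to high, as the mean of the 4 pools with bars from the lowest to the highest pool. Sprr1b, S100a9, Sbsn and Defb14 are highest in the tenth decile, whereas Nrg1 and Itga6 peak in the sixth and Mmp13 in the seventh.

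Against the ninth decile alone, wound keratin high cells had 31 genes higher (1.35%) and 33 lower (1.43%) of 2301. The top 10% of cells by other genes was shared to differing degrees. Of the 415 cells, 262 (63.1%) were in the top 10% by Sprr1a plus Sprr1b, 216 (52.0%) in that by S100a8 plus S100a9, 39 (9.40%) in that by Mmp9 plus Mmp13 and 2 (0.482%) in that by Nrg1. All of these sets hold 415 cells, so the shares are the same from either side.

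Krt1 plus Krt10 high cells, the other differentiating cells of these wounds, had a different set of late genes. Of 2297 genes, 168 were higher (7.31%) in wound keratin high cells and 196 lower (8.53%), and of 4722 genes from 20 CPM 5.55% and 9.85%. Slpi stood at 516 to 873 CPM in wound keratin high cells, against 16.5 to 28.0 CPM in Krt1 plus Krt10 high cells, and Defb14 at 275 to 666 CPM against 6.84 to 32.4 CPM. Crct1, a gene of the epidermal differentiation complex, stood at 82.1 to 609 CPM against 9.21 to 19.0 CPM, but 5 cells of each pool held 68.7% to 90.7% of its UMIs, so its sums describe few cells. For Slpi these shares were 40.1% to 84.5%. Gjb6 stood at 129 to 256 CPM against 11.4 to 31.5 CPM. On the lower side Flg stood at 0.456 to 1.01 CPM against 39.9 to 263 CPM, the metallothionein Mt4 at 6.93 to 27.3 CPM against 548 to 1208 CPM, and Calm4, a calmodulin-like protein, at 498 to 837 CPM against 2784 to 5649 CPM. Krt17 stood at 4888 to 5886 CPM in wound keratin high cells and 904 to 1093 CPM in Krt1 plus Krt10 high cells. Granular genes had 6 higher and 2 lower of 11 measured members, and small proline-rich proteins 6 higher and 2 lower of 9. Basal and hemidesmosome genes had 4 higher and 0 lower of 14, and migration and wound-edge matrix genes 10 higher and 0 lower of 18. Mmp10 had log2 folds of 1.55 to 4.71 over the pools, Mmp13 of -1.78 to 3.66 and Mmp14 of -1.84 to 0.28. The lower basal and wound-edge levels given above are thus against the rest only.

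**Figure D4:**
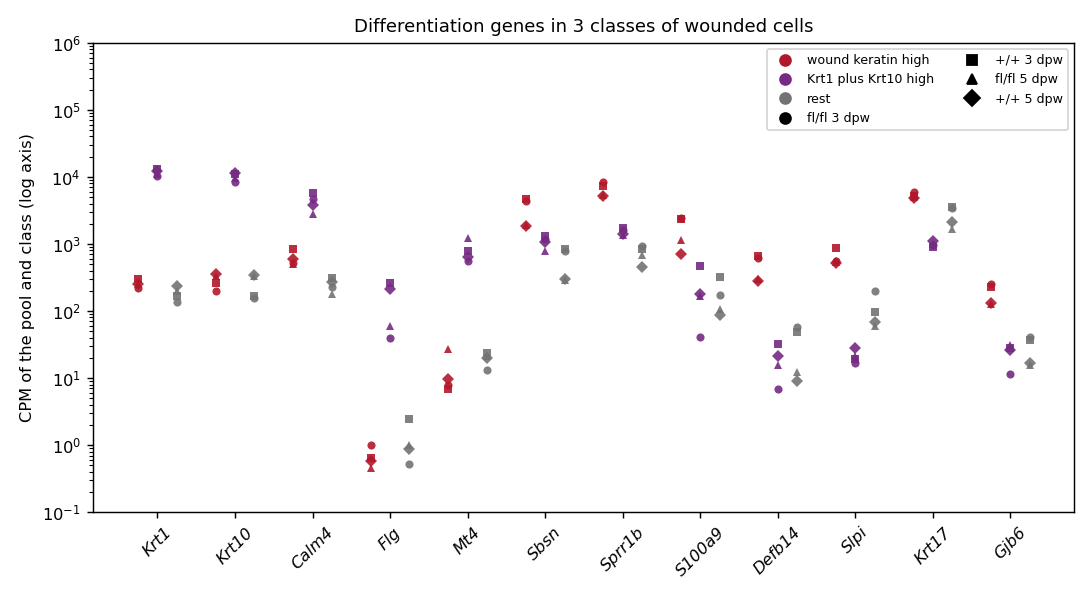
Level in CPM (log axis) of 12 genes in wound keratin high cells (left), Krt1 plus Krt10 high cells (middle) and the rest (right), with a marker for each of the 4 pools. Flg, Mt4 and Calm4 are highest in Krt1 plus Krt10 high cells, and Sbsn, Sprr1b, S100a9, Defb14, Slpi, Krt17 and Gjb6 in wound keratin high cells.

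Within wound keratin high cells the genotypes were set side by side at each day, a contrast the score did not use, though 1 limit on the wound keratins chose the cells of both genotypes. At 3 dpw 13 genes were higher (0.609%) and 57 lower (2.67%) in fl/fl cells of 2136 genes, and at 5 dpw 12 were higher (0.546%) and 3 lower (0.137%) of 2196. Over genes from 20 CPM, as used for lists, 0.761% were higher and 4.68% lower at 3 dpw, and 0.646% and 0.289% at 5 dpw. In the rest of the pools, from 50 CPM, 0.178% were higher and 0.355% lower at 3 dpw, and 0.144% and 1.54% at 5 dpw. The 3 dpw values rest on 50 fl/fl cells. Phgdh was lower in fl/fl cells at both days, with log2 folds of -3.12 (-4.01 to -2.35) at 3 dpw and -2.46 (-2.79 to -2.14) at 5 dpw, against -2.93 and -2.71 in the rest. Its reads are 3′ reads, and which exons are floxed is not given in the sources used here.

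At 3 dpw the lower genes in fl/fl cells included Ereg, an EGF receptor ligand, at 36.8 CPM against 132 CPM in +/+ cells, a log2 fold of -1.84 (-2.14 to -1.55), whereas the rest of the pools had 0.21. In fl/fl cells 5 cells held 77.1% of its UMIs. G2/M genes had 4 lower and 0 higher of 5 measured members, with a median log2 fold of -1.27, against -0.08 over all genes. Measured genes averaged at least 20 CPM over both genotypes, so a gene low in fl/fl cells can enter through its +/+ level. Mki67 averaged less and is not among the 5. It was at -1.33 with 32 UMIs in fl/fl cells, 81.2% of them in 5 cells. In other settings Mki67 was at 0.056 (under 1000 CPM of Krt1 plus Krt10) and at 0.24 (cells of 40000 to 80000 UMIs). The G2/M list itself was not rerun in other settings for this contrast. Genes of the late envelope and surface went both ways. Lower were Lce3c, which had 186 CPM in fl/fl cells against 554 CPM in +/+ cells, Lce3d with 135 against 375 CPM, and Cdsn, a corneodesmosome protein, with 64.4 against 160 CPM, and in the rest of the pools their log2 folds were 1.73, 1.01 and 0.37, the other way. In male cells alone Lce3c and Lce3d turned to log2 folds of 0.14 and 0.61, and in the top 20% to 0.76 and 0.20, and no fl/fl cell was called female. Higher were the surface proteases Asprv1, with 619 against 328 CPM, and Klk7, with 458 against 270 CPM, and Sprr2f, with 125 against 74.0 CPM. In the rest of the pools the log2 folds of Asprv1, Klk7 and Sprr2f were -1.27, -1.07 and -2.65, the other way. For these genes 5 cells held 87.9%, 85.6% and 91.1% of the UMIs in the fl/fl class. In the +/+ class the shares were 54.9%, 47.8% and 89.0%. In the top 20% Asprv1 and Sprr2f turned to -0.13 and -0.23. Granular genes had 2 higher and 2 lower of 11 measured members. The sums rest on few cells, since 5 cells held 98.7% of the Lce3c UMIs in the fl/fl class and 86.7% in the +/+ class. Higher in fl/fl cells at 3 dpw were Slc16a3, a lactate transporter, at 130 CPM against 71.1 CPM in +/+ cells (log2 fold 0.87, 0.68 to 1.06), and Id1, a BMP target, at 266 CPM against 150 CPM (0.82, 0.69 to 0.96). The rest of the pools had 0.17 and -0.07 for these genes.

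At 5 dpw S100a9 had 1147 CPM in fl/fl cells against 702 CPM in +/+ cells, a log2 fold of 0.71 (0.66 to 0.75), and S100a8 had 777 against 438 CPM (0.83, 0.77 to 0.89). Stfa2, a stefin, had 364 against 172 CPM (1.08, 0.99 to 1.17) and Mt2 had 229 against 112 CPM (1.04, 0.93 to 1.15). Within the rest these genes had log2 folds of 0.33, 0.31, 0.54 and 0.24. Over the other settings S100a9 ran from 0.19 to 1.0955, S100a8 from 0.29 to 1.18, Stfa2 from 0.56 to 1.38 and Mt2 from 0.51 to 1.51, so each dropped under 1.5-fold in some. For S100a9, 5 cells held 44.5% of the UMIs in fl/fl and 29.0% in +/+ cells. Klk7, a protease of the outer epidermis, had the highest log2 fold, 2.50 (2.26 to 2.75), but 5 cells held 92.0% of its UMIs in the fl/fl class and 91.4% in the +/+ class, and the rest of the pools had -1.46. Of the lower genes, Fabp4, a fatty acid carrier, had 35.4 CPM in fl/fl cells against 168 CPM in +/+ cells, where 5 cells held 91.9% of its UMIs, and Hmox1, which degrades heme, had 79.8 against 139 CPM (-0.80, -0.93 to -0.66), with -1.21 to -0.33 over the other settings. In the rest of the pools Fabp4 and Hmox1 had log2 folds of 1.28 and 0.44, the other way. The count of genes at this day was 15 and ran from 8 to 47 with other limits of the score, 8 at the top 20% and 47 at the top 5%.

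Between the days, measured granular genes were mostly lower and measured G2/M genes mostly higher at 5 dpw. In fl/fl cells 111 genes were higher (5.2%) and 131 lower (6.14%) at 5 than at 3 dpw of 2135, and in +/+ cells 17 were higher (0.768%) and 135 lower (6.1%) of 2214. From 20 CPM these shares were 8.17% and 5.28% in fl/fl cells and 1.75% and 5.39% in +/+ cells. In the rest of the pools, from 50 CPM, they were 1.4% and 2.87% in fl/fl and 0.633% and 2.04% in +/+ cells. Granular and cornified envelope genes were lower at 5 dpw in 6 of 10 measured members in fl/fl cells and 9 of 10 in +/+ cells, with median log2 folds of -1.10 and -1.23, and in the rest of the pools the medians were -1.32 and -1.68. S100a9 had log2 folds of -1.08 in fl/fl and -1.72 in +/+ cells, 5 over 3 dpw. G2/M genes were higher in 8 of 8 measured members in fl/fl cells and 8 of 9 in +/+ cells, with medians of 2.29 and 0.75. In the rest the medians were 0.16 and -0.02. Measured genes averaged at least 20 CPM over both days, so a gene low at one day can enter through the other. The counts of measured genes are thus a description. At 3 dpw Mki67 in fl/fl cells rested on 32 UMIs, 81.2% of them in 5 cells. The genotype and day comparisons share pools and are not independent of each other.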

How the data were processed

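The deposited matrix holds UMI counts per gene or hashtag and barcode, which the authors made with Cell Ranger 7.1.0 against mm10, with Seurat 4.3.0 also named, per the submitters' processing notes. Raw counts were used, and 0 columns of other samples were in the matrix. Kept barcodes had at least 5000 gene UMIs, at most 10% mitochondrial UMIs, and at least 20 hashtag UMIs with at least 70% from 1 hashtag. These steps kept 6407 barcodes for depth and mitochondrial content, then dropped 641 for a mixed hashtag and 100 for too few hashtag UMIs, which left 5666. Hashtag conditions come from the deposited feature reference, whose WT and cKO names were read as +/+ and fl/fl. Doublets within a hashtag stay in, no doublet caller was run, and free RNA was not subtracted. Summed over cells, the wound keratin high classes hold 2964236 (fl/fl, 3 dpw) to 8763749 UMIs (fl/fl, 5 dpw), where a count of 0 allows up to 1.01 to 0.342 CPM. Each fold divides 2 CPM values and has an exact 95% interval from the binomial split of the UMIs, shares have Clopper-Pearson intervals, and these cover counting error only (Python 3.11.15, scipy 1.17.1, statsmodels 0.14.6). Promoters were aligned with Biopython 1.88, and TMM factors came from edgeR 4.0.16. The calculation was tested on simulated data.

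Named were the 15 highest and 15 lowest mean log2 folds of at least 50 CPM with the same sign and an interval off 0 in all 4 pools, the 10 highest and lowest genotype folds per day, up to 4 members of each gene list of at least 20 CPM, and fixed marker genes. Keratins of the score, mitochondrial, ribosomal protein, Gm- and Rik-named and sex-linked genes were left out of the ranked picks. All 152 named genes of the contrast with the rest were placed in the RefSeq gene table by symbol. The members, gene lists and limits were chosen with earlier results of these data known. Genes called in full by list but outside these picks (such as Defb1, Ccl27a and Il24) and the markers Flg, Lor, Flg2 and Krt75 are named to complete a count. Alternatives were other cell filters, limits and scores, TMM, equal weight per cell, other CPM minimums, male cells alone and each pool left out. Members of near-identical families (Krt6, Sprr2, Lce3, stefins) may share reads. The full count of the metalloproteinase list is not reported here.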

Additional observations from a re-analysis of the deposited data

Results flagged for a closer look

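In 4 genes the genotype difference within wound keratin high cells went opposite ways at the 2 days, past 1.5-fold both times. Krt15 had a log2 fold, fl/fl over +/+, of 1.11 at 3 dpw and -1.48 at 5 dpw, and the rest of the pools had -0.31 and -1.29. Cdsn had -1.31 at 3 dpw and 0.68 at 5 dpw, Lce3d -1.48 and 0.84, and Lgals1, a galectin, -0.64 and 0.74. At 3 dpw Krt15 turned to -0.29 in the top 20%, and Lce3d to 0.20 in the top 20% and 0.61 in male cells, so for these genes the opposite direction was lost there. With 1 pool per condition the difference between the days was not tested. At 3 dpw 5 cells held 77.5% of the Krt15 UMIs of the fl/fl class and 49.5% of those of the +/+ class. For Lce3d these shares were 99.2% and 86.8%, and for Cdsn 79.6% and 63.9%.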

How the results depend on the processing

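No paired analysis was possible because each condition is 1 pool and the labels number no replicates. From pool totals 197 genes were higher and 455 lower in wound keratin high cells. These counts were 450 and 169 with TMM, 321 and 1222 from 20 CPM and 504 and 3096 with no minimum, which test more genes, and with each pool left out 204 to 227 and 469 to 505. The fl/fl over +/+ counts were 70 at 3 dpw and 15 at 5 dpw. At 3 dpw they were 107 in the top 5%, 32 in the top 20%, 236 from 20 CPM, 946 with no minimum and, chosen after seeing the data, 117 in cells of 40000 to 80000 UMIs. At 5 dpw they were 28 under a 5% mitochondrial limit, 24 from a 90% hashtag share, 47 in the top 5%, 8 in the top 20%, 26 under 1000 CPM of Krt1 plus Krt10, 23 with equal weight per cell, 42 from 20 CPM and 638 with no minimum. In alternatives chosen after seeing the data they were 39 in cells of 40000 to 80000 UMIs, 43 without cells of at least 1000 CPM of cycle genes and 24 without cells near the limit. With a pool left out the counts were 65 to 70 and 15 to 15. Ratios of shares, fl/fl over +/+, were then 1.06 to 1.06 at 3 dpw and 1.04 to 1.07 at 5 dpw, and 5 over 3 dpw 0.985 to 1.001 in +/+ and 0.974 to 0.974 in fl/fl. Genotype log2 folds that turned round at 3 dpw were, in the top 20%, Asprv1 (-0.13), Krt15 (-0.29), Sprr2f (-0.23), Lce3c (0.76), Lce3d (0.20) and Lce3f (1.28), in male cells Lce3c (0.14) and Lce3d (0.61), under 1000 CPM of Krt1 plus Krt10 Mki67 (0.056), and at 40000 to 80000 UMIs Mki67 (0.24) and Ftl1 (-0.12). At 5 dpw Crct1, at 0.95 in the reported value, was -0.22 in the top 5%, -0.077 in the top 20%, -0.20 by mean rank, -0.26 in male cells and -0.16 at 40000 to 80000 UMIs. The cause was not tested. No mean fold against the rest of at least 1.5-fold turned round. Smaller ones did with TMM, such as those of Krt5 and Atf4.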

Other observations

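Regulator and stress lists gave mixed pictures in wound keratin high cells against the rest. Over all genes from 20 CPM 6.3% were higher and 24% lower from pool totals, and 13.9% and 9.92% with TMM. Counts such as 3 lower of 13 NRF2 targets or of 12 heat shock genes lie near these shares and are no result about the list. Of 14 Notch and epidermal fate genes 2 were higher under both scalings, Zfp750 and Prdm1, which act in terminal differentiation, and 2 were lower from pool totals but 0 with TMM. Of 13 NRF2 targets 3 were higher and 3 lower (2 under both scalings), with Hmox1 at a mean log2 fold of 1.82 and Ftl1, the ferritin light chain, at -2.13. Of 13 hypoxia genes 3 were higher and 2 lower. Of 5 YAP targets 4 were lower (2 under both scalings), and of 6 interferon and MHC class I genes 2. Of 11 STAT3 and NF-kB regulators 2 were lower (1 under both), of 16 AP-1 and immediate early genes 2 (0 under both), and of 15 ribosome biogenesis genes 1 (0 under both). Of 12 heat shock genes 1 was higher and 3 lower (1 under both). Nfatc1, Postn and Sox9, the measured members of the stem cell list, were all lower, 2 of them under both scalings. Of the other stress and follicle keratins Krt17 alone was measured, and it missed the call from pool totals.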
